A study of Mus musculus with 8 samples.

Results

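Secondary granules are packaged in granulocyte precursors after the primary granules, and neutrophils add further secreted and cytosolic proteins as they mature. The 10 genes described here encode such proteins: Ltf, Lcn2, Camp, Ngp, Retnlg, S100a8, S100a9, Mmp8, Cd177 and Chil3. They were taken by symbol, as the rows of the expression table to which the platform annotation gives exactly 1 of these symbols. Each gene had exactly 1 such row, so 10 rows stood for 10 of 19938 genes. The platform was the Affymetrix Mouse Gene 1.0 ST array, and 8 arrays fell, 2 each, into 4 groups: KO LSK, Het LSK, KO GMP and Het GMP. KO mice carried Vav1-iCre, a Cre recombinase driven by a promoter active in blood cells, and 2 floxed Cbfb alleles, Cbfb(F/F). Het mice carried the same Cre and 1 floxed allele, Cbfb(F/+), so both genotypes expressed Cre and no wild type entered the comparison. LSK cells, a bone marrow fraction with stem cells and early multipotent progenitors, and GMP cells, which give rise to granulocytes and macrophages, came by cell sorting from 2 mice per genotype, all 7 weeks old and backcrossed to C57BL6. The labels give about 200000 cells per sample at a purity above 98%, and they do not tie an array to a mouse, so the p-values below measure the spread between arrays.

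Cbfb encodes the subunit that binds RUNX transcription factors and strengthens their hold on DNA. Granulocytes make the proteins of their granules in waves, first the proteases and myeloperoxidase of the primary granules at the promyelocyte stage and then the secondary granule proteins at the myelocyte stage, where C/EBP epsilon is required for most of them. Transcripts of the second wave mark cells beyond the GMP stage and are known to be far more abundant in maturing bone marrow neutrophils than in sorted progenitors.

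Values are log2 expression values and differences are on the log2 scale, where 1 unit is a 2-fold difference. Array medians over the 21789 rows with 1 gene symbol lay between 4.92 and 5.09, and arrays of the same group correlated at 0.990 or more. In each of the 4 groups 9 of the 10 genes lay above the array median on both arrays, and Mmp8 was the exception. Between Het GMP and Het LSK, 8 of 8 measured LSK markers fell, and 6 of 8 GMP markers rose and 2 fell. Between KO GMP and KO LSK, 5 of 8 LSK markers fell, and 5 of 8 GMP markers rose and 2 fell. The 2 GMP markers that fell were Kit and Cd34 in both genotypes, and both genes are also counted among the LSK markers. Over all rows, 7.9% were called higher and 9.6% lower in Het, and 3.66% and 2.39% in KO. In KO GMP over Het GMP, 2 of 8 LSK markers were called higher and 0 lower (median 0.26), beside 3.45% of all rows called higher. These 2 were the stem cell genes Meis1 (3.11, adjusted p = 8.2e-05) and Slamf1 (3.42, adjusted p = 7.78e-05). Slamf1 also rose in KO LSK, by 2.40 (adjusted p = 0.000399). Of the markers that did not pass in GMP, Kit and Hlf lay above 0 (0.59 and 0.66). Flt3, Cd34, Procr and Mecom lay below it (-0.90, -0.24, -0.14 and -0.07). The targeted gene Cbfb fell in KO GMP (difference -0.86, adjusted p = 0.013, lost without either Het GMP array or KO GMP replicate 1, with adjusted p up to 0.104) and had a difference of -0.60 in KO LSK that missed the threshold (adjusted p = 0.0557).

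The sequences directly before the gene start are shown for Ltf and Ngp, which moved together across the arrays, for Retnlg, which went its own way, for Cd177, which fell in KO GMP, and for S100a9, which had a match to the RUNX letters before its start. They are RefSeq's 250 bases before the start on GRCm38.p6, and 10 of the 10 genes matched the RefSeq table. Capitals mark a match to TGTGGT, the RUNX core letters, or to TTNNGCAA, a C/EBP-type form, on either strand. The positions are chr9:111019042-111019291, plus strand for Ltf, chr9:110419558-110419807, plus strand for Ngp, chr16:48872358-48872607, plus strand for Retnlg, chr7:24760312-24760561, minus strand for Cd177, and chr3:90695722-90695971, minus strand for S100a9.
Ltf: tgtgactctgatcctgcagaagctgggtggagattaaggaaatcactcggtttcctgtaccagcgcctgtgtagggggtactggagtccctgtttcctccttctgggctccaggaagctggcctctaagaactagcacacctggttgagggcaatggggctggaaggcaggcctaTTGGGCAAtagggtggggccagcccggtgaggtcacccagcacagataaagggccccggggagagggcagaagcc
Ngp: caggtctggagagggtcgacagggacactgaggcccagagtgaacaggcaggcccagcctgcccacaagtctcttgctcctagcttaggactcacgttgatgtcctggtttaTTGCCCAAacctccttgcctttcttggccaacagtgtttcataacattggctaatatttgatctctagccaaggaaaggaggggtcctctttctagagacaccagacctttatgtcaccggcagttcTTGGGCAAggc
Retnlg: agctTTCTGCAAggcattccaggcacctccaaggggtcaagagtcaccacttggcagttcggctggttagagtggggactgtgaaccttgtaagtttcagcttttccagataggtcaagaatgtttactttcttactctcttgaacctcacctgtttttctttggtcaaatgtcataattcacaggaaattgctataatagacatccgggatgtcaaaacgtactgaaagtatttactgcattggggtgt
Cd177: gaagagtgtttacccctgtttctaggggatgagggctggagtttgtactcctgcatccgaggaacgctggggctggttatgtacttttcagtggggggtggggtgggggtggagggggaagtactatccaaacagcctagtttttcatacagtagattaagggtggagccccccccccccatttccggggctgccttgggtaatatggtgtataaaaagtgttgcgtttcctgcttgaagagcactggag
S100a9: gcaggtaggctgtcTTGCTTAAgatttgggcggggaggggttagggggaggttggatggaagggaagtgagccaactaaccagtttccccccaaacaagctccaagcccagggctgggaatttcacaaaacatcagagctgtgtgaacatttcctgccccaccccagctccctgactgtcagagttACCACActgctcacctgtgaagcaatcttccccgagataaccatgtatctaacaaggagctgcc
Windows of 300 bases, 250 before and 50 after each start, were searched on both strands. TTNNGCAA occurred in 6 of the 10 windows (Ltf, Lcn2, Ngp, Retnlg, S100a9 and Mmp8), against 10.8% of all 32851 windows, and Ngp held it at 2 positions, 138 and 11 bases before the start. TGTGGT occurred in 2 of the 10 (Ltf and S100a9), against 16.8% of all windows. The RUNX match in Ltf began 25 bases after the start and is therefore not in the printed stretch. For the Retnlg window the single match was to the C/EBP letters, 246 bases before the start, and the Cd177 window held none of these sets of letters. A match is a description of the letters and not of a bound site. The start sites of S100a8 and S100a9 lie next to each other on chromosome 3 with 0 coding genes listed between them, while Camp, Ngp and Ltf lie apart on chromosome 9.

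The 2 arrays of a group did not give the same level for these genes, and the gap was widest in Het LSK. There, replicate 2 was higher than replicate 1 for 10 of 10 genes, against 48.8% of all tested rows, with a median gap of 1.81 and a range of 0.24 (Cd177) to 2.20 (Chil3). For 8 of the 10 the gap was above 1, against 0.197% of all tested rows, so that 8 of the 43 rows with such a gap were members of this set. In Het GMP replicate 2 was again higher for 10 of 10 (against 48.8% of rows, median 0.86), 2 of them by more than 1, against 0.101% of rows. In KO LSK replicate 2 was higher for 1 of 10, against 50.0% of rows, and lower for 9, with a median of -0.52 and 2 genes beyond -1, against 0.285% of rows. In KO GMP it was higher for 2 of 10, against 49.0% of rows, with a median of -0.21. Retnlg had the opposite sign to most others on the KO arrays, with replicate 2 higher by 0.15 in LSK and by 0.41 in GMP.

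**Figure D1:**
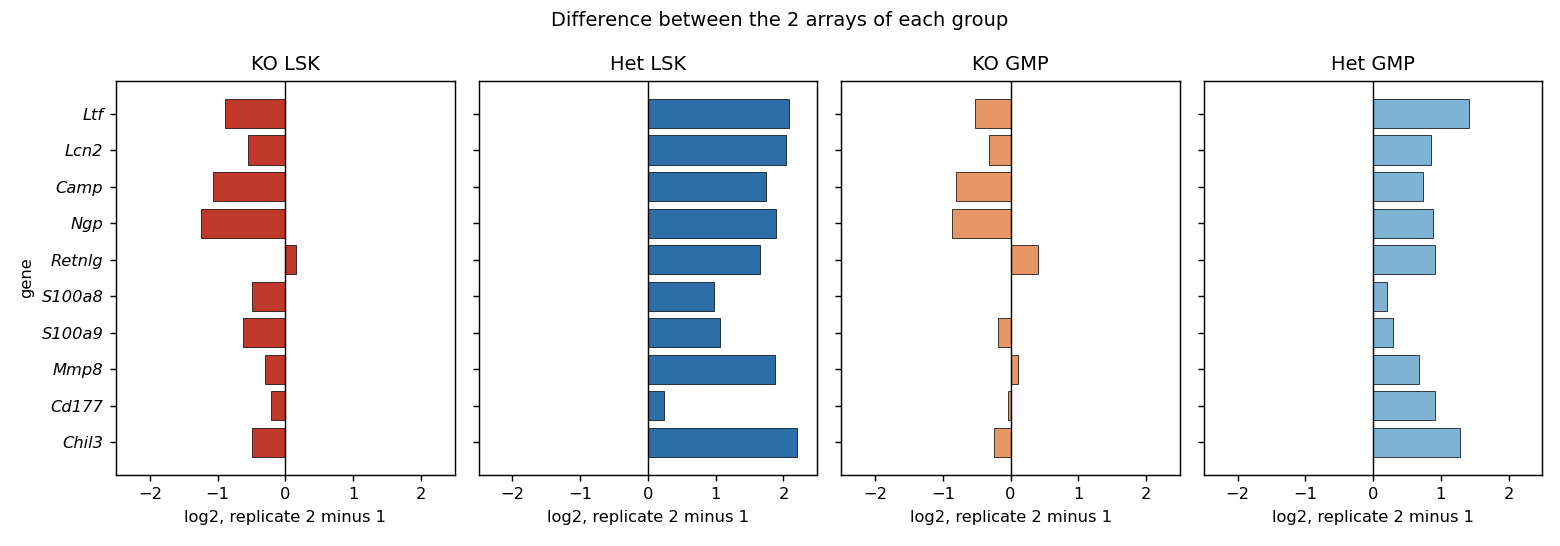
Bars give the log2 value of replicate 2 minus that of replicate 1 for each gene (down the page) in each of the 4 groups, with 0 meaning equal arrays. In Het LSK and Het GMP every bar points right (0.24 to 2.20 in Het LSK), while most bars of the KO groups point left.

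Other neutrophil transcripts differed between the same arrays. Ly6g, which encodes a surface antigen of mouse neutrophils, had 2.72 and 4.55 on the Het LSK arrays and 4.96 and 6.57 on the Het GMP arrays (replicates 1 and 2). Of 27 measured genes of another granule and mature neutrophil list, 24 were higher on Het LSK replicate 2, with a median gap of 0.41, and 16 were higher on Het GMP replicate 2, with a median gap of 0.04. Of 12 primary granule genes 5 were higher on Het LSK replicate 2, with gaps in both directions (median -0.08, median absolute gap 0.38). Of 6 eosinophil, basophil and mast cell genes, 6 were higher on that array with a median gap of 0.14. The largest gap of that list was 2.22, for Prg2, the eosinophil major basic protein gene. Of 7 B cell markers 0 were higher on that array (median gap -0.54). The 7 measured genes of a mature neutrophil surface list (of 10) had a mean level per array of 6.27 to 6.64 in KO LSK, against 5.58 to 5.78 in Het LSK, and of 6.42 to 6.72 in KO GMP, against 6.31 to 6.80 in Het GMP. Cxcr2 is 1 of them, and without it the other 6 had 5.73 to 6.08 in KO LSK, against 5.56 to 5.89 in Het LSK, and 6.10 to 6.38 in KO GMP, against 6.33 to 6.89 in Het GMP. The contribution of mature neutrophils to the differences below was not tested, and in bulk RNA fewer cells of a type and less RNA per cell cannot be told apart.

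**Figure D2:**
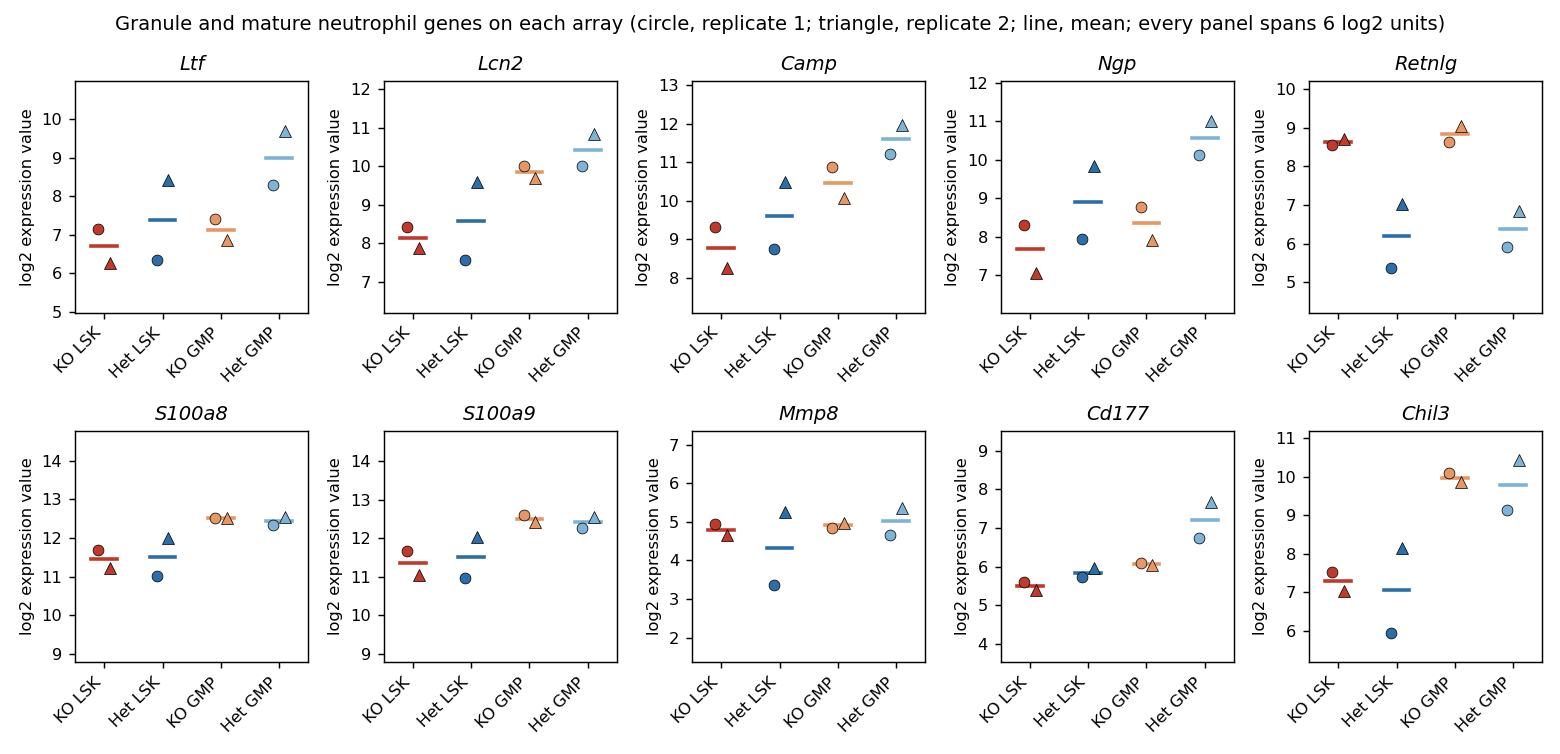
Log2 expression value of each gene on each of the 8 arrays (circle, replicate 1; triangle, replicate 2; line, group mean), each panel spanning 6 log2 units. Retnlg is high on all 4 KO arrays (8.55 to 9.05) and low on all 4 Het arrays (5.38 to 7.03), Ngp, Ltf, Camp and Cd177 are lower on both KO GMP arrays than on both Het GMP arrays, and the 2 Het LSK arrays stand far apart in most panels.

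The first question was which of these genes differed between KO and Het within each cell type. Retnlg rose in both cell types, by 5.35-fold in LSK and 5.50-fold in GMP. In GMP, Cd177 fell, and Ngp, Ltf and Camp were lower on both KO arrays without passing the test. S100a8, S100a9, Lcn2, Mmp8 and Chil3 did not pass in either cell type, and their KO and Het arrays overlapped. In LSK, 1 of the 10 rose and 0 fell, against 7.73% of all tested rows passing (3.02% higher and 4.71% lower). In GMP, 1 rose and 1 fell, against 6.02% (3.45% higher and 2.57% lower). Markers of other lineages moved in both comparisons. In KO GMP 6 of 6 measured megakaryocyte genes were called higher (median 3.0), led by Clec1b (4.78, adjusted p = 1.59e-05) and Itga2b (4.28, adjusted p = 1.74e-05). Of 10 monocyte and macrophage genes 1 was called higher and 6 lower (median -1.17). In KO LSK 6 of 7 B cell genes were called lower (median -3.05). Of 6 megakaryocyte genes 2 were called higher there, led by Clec1b (5.91, adjusted p = 1.24e-05), and 1 lower. Of 10 monocyte and macrophage genes 1 was called higher and 2 lower in KO LSK, and of 8 LSK markers 1 higher and 4 lower. The contribution of these shifts to the differences in LSK and GMP was not tested. The median difference of the 10 was -0.25 in LSK and -0.34 in GMP, beside 0.01 and -0.02 over all genes. All p-values are limma's, adjusted by Benjamini-Hochberg over the 21789 rows, since the smallest two-sided p of an exact permutation test with 2 arrays in each group is 0.333.

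**Figure D3:**
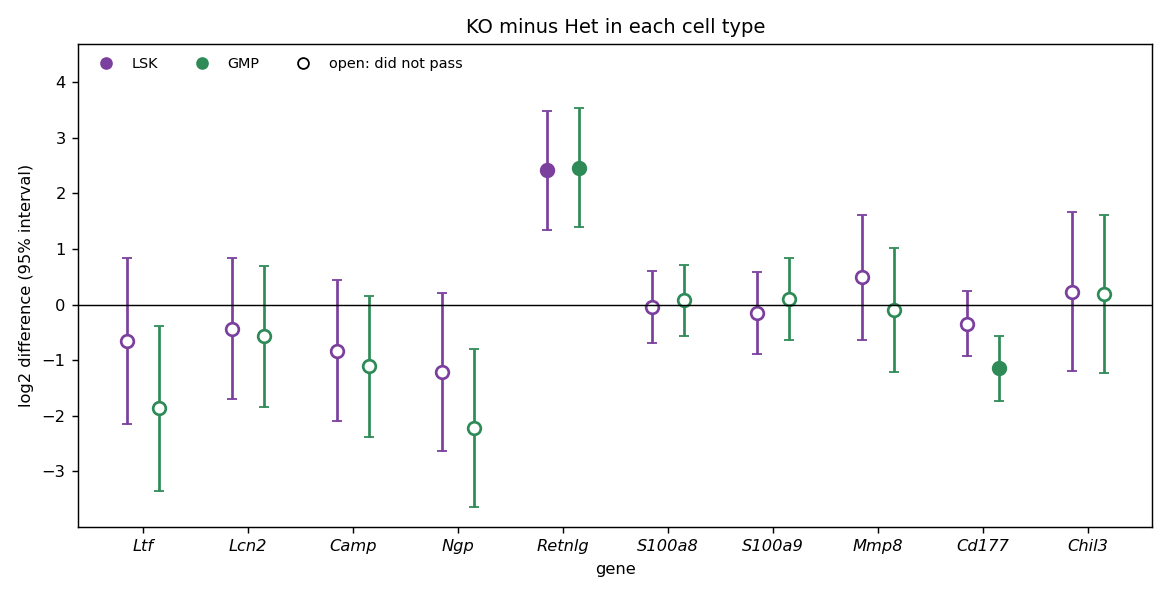
KO minus Het log2 difference with its 95% interval for each gene, in LSK (purple) and GMP (green); filled points passed at an adjusted p under 0.05 and open points did not. Retnlg lies near 2.4 in both cell types, Cd177 at -1.15 in GMP, and the intervals of S100a8 and S100a9 span 0 within 1 log2 unit.

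Among the secondary granule proteins, Ltf encodes lactoferrin, an iron-binding protein. It had 7.16 and 6.27 in KO LSK, against 6.34 and 8.42 in Het LSK, and 7.40 and 6.87 in KO GMP, against 8.29 and 9.70 in Het GMP. The LSK groups overlapped, since 1 Het LSK array was about as low as the lower KO array, whereas both KO GMP arrays lay below both Het GMP arrays. The differences were -0.66 (SE 0.66, adjusted p = 0.668) in LSK and -1.86 (SE 0.66, 95% interval -3.35 to -0.38, adjusted p = 0.168) in GMP.

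Ngp encodes neutrophilic granule protein, a cathelicidin-related protein. It had 8.31 and 7.07 in KO LSK, against 7.95 and 9.85 in Het LSK, and 8.78 and 7.92 in KO GMP, against 10.13 and 11.01 in Het GMP. Again the LSK arrays overlapped and the GMP arrays did not. The GMP difference of -2.22 (SE 0.62, adjusted p = 0.0815) missed the threshold, and the LSK difference was -1.21 (SE 0.62, adjusted p = 0.335). The GMP difference passed in 3 of 16 alternatives, on the 4 GMP arrays alone (adjusted p = 0.0145) and without either Het LSK array (0.0339). Its adjusted p ran up to 0.37, and without any 1 GMP array from 0.136 to 0.37.

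Camp encodes the cathelicidin precursor, an antimicrobial peptide, and Lcn2 the siderophore-binding lipocalin. Camp had 10.87 and 10.08 in KO GMP, against 11.22 and 11.96 in Het GMP, and 9.32 and 8.25 in KO LSK, against 8.74 and 10.48 in Het LSK. The GMP arrays of Camp did not overlap by genotype and the LSK arrays did, with differences of -1.11 (SE 0.56, adjusted p = 0.368) and -0.83 (SE 0.56, adjusted p = 0.487). Lcn2 had 10.01 and 9.69 in KO GMP, against 10 and 10.85 in Het GMP, and 8.42 and 7.87 in KO LSK, against 7.57 and 9.60 in Het LSK. Its arrays overlapped in both cell types (difference -0.57 in GMP and -0.44 in LSK, adjusted p = 0.698 and 0.751).

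Cd177 encodes a surface glycoprotein of neutrophils, stored in secondary granules in humans. It had 6.08 and 6.03 in KO GMP, against 6.74 and 7.66 in Het GMP, and fell by 1.15 (SE 0.26, 95% interval -1.73 to -0.56, adjusted p = 0.0325). In LSK it had 5.61 and 5.38 in KO, against 5.72 and 5.96 in Het, with both KO arrays below both Het arrays and a difference of -0.35 (SE 0.26, adjusted p = 0.534). The size of the GMP difference rested on 1 array: without Het GMP replicate 2 it was -0.69 (adjusted p = 0.103), and without Het GMP replicate 1 it was -1.61 (adjusted p = 0.00356). The call was also lost without either KO GMP array (adjusted p = 0.135 and 0.169 without replicates 1 and 2), without either Het LSK array (0.0528) and in the fit on GMP arrays alone (0.0585).

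Mmp8 encodes neutrophil collagenase and Chil3 a chitinase-like secreted protein of neutrophils and alternatively activated macrophages. Mmp8 had 4.95 and 4.65 in KO LSK, against 3.37 and 5.25 in Het LSK, and 4.85 and 4.96 in KO GMP, against 4.67 and 5.35 in Het GMP, levels around or below the array medians. Its differences were 0.49 (SE 0.49, adjusted p = 0.675) in LSK and -0.10 (SE 0.49, adjusted p = 0.951) in GMP. Chil3 had 7.53 and 7.04 in KO LSK, against 5.95 and 8.15 in Het LSK, and 10.10 and 9.85 in KO GMP, against 9.14 and 10.43 in Het GMP. For both genes the KO arrays lay between the 2 Het arrays in each cell type, and Chil3 differed by 0.23 in LSK and by 0.19 in GMP (SE 0.63 each, adjusted p = 0.896 and 0.929).

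S100a8 and S100a9 encode the 2 subunits of calprotectin, a calcium- and metal-binding complex of the neutrophil cytosol. S100a8 had 11.70 and 11.21 in KO LSK, against 11.02 and 11.99 in Het LSK, and 12.52 on both KO GMP arrays, against 12.34 and 12.54 in Het GMP. S100a9 had 11.67 and 11.05 in KO LSK, against 10.97 and 12.04 in Het LSK, and 12.60 and 12.42 in KO GMP, against 12.26 and 12.56 in Het GMP. The KO and Het arrays overlapped for both genes in both cell types. In GMP the intervals of the difference ran from -0.56 to 0.72 for S100a8 and from -0.64 to 0.83 for S100a9. In LSK they ran from -0.69 to 0.60 and from -0.89 to 0.58. All 4 intervals stay within 2-fold, but their width comes from a spread pooled over the 4 groups. The 2 Het LSK arrays alone differed by 0.97 for S100a8 and by 1.07 for S100a9, so a 2-fold difference in LSK is not excluded.

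Retnlg encodes resistin-like gamma, a small secreted protein made by mature neutrophils and found in mouse bone marrow. It had 8.55 and 8.70 in KO LSK, against 5.38 and 7.03 in Het LSK, and 8.64 and 9.05 in KO GMP, against 5.92 and 6.84 in Het GMP. The 4 KO arrays lay within 0.50 of each other and at least 1.52 above the highest Het array. Ordered by mean, KO GMP (8.84 ± 0.29) and KO LSK (8.63 ± 0.10) came first and Het GMP (6.38 ± 0.65) and Het LSK (6.21 ± 1.16) after them (SD, n = 2 each), and neither pair of neighbours of the same genotype differed beyond its spread. Retnlg rose by 2.42 in LSK (SE 0.47, 5.35-fold, 95% interval 1.35 to 3.49, adjusted p = 0.0145) and by 2.46 in GMP (SE 0.47, 5.50-fold, 95% interval 1.39 to 3.53, adjusted p = 0.0158). Without Het LSK replicate 1 the LSK difference was 1.59 (adjusted p = 0.0447) and without Het LSK replicate 2 it was 3.24 (adjusted p = 0.00212). In GMP the difference no longer passed if Het GMP replicate 1 was left out (2.0, adjusted p = 0.141), nor without KO GMP replicate 1 (2.66, adjusted p = 0.0551) or KO GMP replicate 2 (2.26, adjusted p = 0.118). In LSK it did not pass without KO LSK replicate 2 (2.35, adjusted p = 0.0595). With rows of several or no symbols tested too, it passed in neither (adjusted p = 0.0753 in LSK and 0.0939 in GMP). Its paralogs Retn, Retnla and Retnlb had 2.07 to 3.98 on the 8 arrays and passed in neither cell type.

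Of the other 9 genes, 7 had an LSK direction that depended on which Het LSK array was kept, while Ngp (-2.16 without Het LSK replicate 1 and -0.27 without replicate 2) and Cd177 (-0.47 and -0.22) lay below 0 either way. With both arrays, 3 genes had a difference above 0 and 7 below. Without Het LSK replicate 1, 1 was above 0 and 9 below (median -0.78), and without Het LSK replicate 2, 8 were above 0 and 2 below (median 0.41). Mmp8 passed in that last fit (1.43, adjusted p = 0.0273). In GMP, 5 of the 10 genes had arrays that did not overlap by genotype, 1 higher and 4 lower in KO, against 51.3% of all rows (23.4% higher and 27.9% lower), and in LSK 2 of the 10 (Retnlg higher and Cd177 lower), against 45.5% (22.8% higher and 22.7% lower). At an unadjusted p under 0.05, 1 gene differed in LSK (Retnlg), against 19.6% of all rows, and 4 in GMP (Retnlg, Cd177, Ngp and Ltf), against 17.3%.

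Of the 10 genes, 0 passed limma's interaction test, which sets the KO effect in GMP against that in LSK, beside 2.29% of all rows, and 0 had an unadjusted p under 0.05, against 13.1%. The interaction for Cd177 was -0.80 (SE 0.36, adjusted p = 0.396), for Ltf -1.20 (SE 0.93, adjusted p = 0.684) and for Retnlg 0.04 (SE 0.67, adjusted p = 0.989).

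Other genes of the neutrophil programme were set beside these 10 from lists chosen with earlier results known. Of the 27 measured genes of the other granule and mature neutrophil list, 4 were called higher and 2 lower in KO LSK, while KO GMP had 4 higher and 7 lower. Over all rows, 3.02% were called higher and 4.71% lower in LSK, and 3.45% and 2.57% in GMP. The list's median difference was -0.03 in LSK and -0.21 in GMP. Of 7 neutrophil surface genes, LSK had 2 higher and 0 lower, and GMP 2 higher and 1 lower. Of 12 primary granule genes, LSK had 2 higher and 4 lower, and GMP 0 higher and 5 lower. With 1 array left out, the granule list had 2 to 4 higher and 2 to 5 lower in LSK, and 1 to 5 higher and 2 to 8 lower in GMP. The primary granule list then had 1 higher and 3 to 4 lower in LSK, and 0 higher and 1 to 5 lower in GMP, and the surface list 1 to 3 higher and 0 to 1 lower in LSK, and 1 to 2 higher and 0 to 2 lower in GMP.

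Cxcr2, the receptor by which neutrophils leave the marrow, had 9.96 and 9.48 in KO LSK, against 5.73 and 5.10 in Het LSK, and 8.79 and 8.40 in KO GMP, against 6.20 and 6.24 in Het GMP. It thus shared with Retnlg a pattern in which all KO arrays lay above all Het arrays, and rose by 4.31 in LSK (adjusted p = 2.38e-05) and by 2.37 in GMP (adjusted p = 0.00046). The C-type lectin receptor gene Clec4d rose in both as well, by 2.57 and 1.85 (adjusted p = 2.26e-05 and 8.19e-05), and Cxcr2 and Clec4d passed in both cell types under all alternatives run. In the same list Padi4, the gene of a histone-citrullinating enzyme of neutrophils, fell by 2.13 in LSK (adjusted p = 4.73e-05) and by 0.71 in GMP (adjusted p = 0.0157). Anxa1, the annexin A1 gene, fell by 1.35 in LSK (adjusted p = 0.000419) but rose by 0.70 in GMP (adjusted p = 0.0177). Its interaction was 2.05 (adjusted p = 0.00207). Clec4e, another C-type lectin receptor gene, rose by 2.70 in LSK (adjusted p = 3.1e-05) and by 0.96 in GMP (adjusted p = 0.00727), the GMP call being lost without KO GMP replicate 1 and without replicate 2 of Het GMP (adjusted p up to 0.0746). Stfa2, a stefin protease inhibitor gene, rose by 1.23 in each (adjusted p = 0.0242 in LSK and 0.0283 in GMP), with the LSK call lost without either Het LSK array or KO LSK replicate 1 (adjusted p up to 0.152) and the GMP call without any 1 of the 4 GMP arrays (adjusted p up to 0.19). On the other side, Fcnb, the ficolin B gene, had 7.39 and 6.68 in KO GMP, against 9.0 and 9.29 in Het GMP, and fell by 2.11 (adjusted p = 0.0155), a call lost without either Het GMP array or KO GMP replicate 2 (adjusted p up to 0.126). Itgb2l, an integrin subunit gene of neutrophils, had 4.78 and 4.59 in KO GMP, against 5.47 and 6.24 in Het GMP, and fell by 1.17 (adjusted p = 0.0315), a call lost without Het GMP replicate 2 or either KO GMP array (adjusted p up to 0.189). Pilra and Slpi, of the granule and mature neutrophil list, fell in KO GMP by 1.42 and 1.32 (adjusted p = 0.000657 and 0.00766) and did not pass in LSK. Fcnb, Itgb2l, Pilra and Slpi were each lower on both KO GMP arrays than on both Het GMP arrays, as were Ltf, Ngp, Camp and Cd177. The first 4 were named because they had passed as lower in KO GMP, so this adds nothing to their calls. Over all rows, 27.9% were lower without overlap in GMP. In the same lists Cxcr2, Clec4d, Clec4e, Stfa2, Itgb2 and Anxa1 were higher on both KO GMP arrays.

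Of the C/EBP genes, Cebpa fell in KO GMP, and Cebpb (-0.42, adjusted p = 0.134), Cebpd (0.13, adjusted p = 0.746) and Cebpe did not pass. They belong to a list of 18 granulocyte transcription factor and cytokine receptor genes. In KO GMP 2 of these 18 were called higher and 4 lower, beside 3.45% and 2.57% of all rows. Irf8 fell by 2.74 (adjusted p = 0.000258) and Runx1 rose by 1.47 (adjusted p = 0.000694). Cebpe, which encodes the factor required for secondary granule genes, had 8.95 and 8.73 in KO GMP, against 8.73 and 8.75 in Het GMP, and differed by 0.10 (SE 0.25, adjusted p = 0.906). In LSK it had 5.87 and 5.73 in KO, against 5.12 and 6.06 in Het (difference 0.21, adjusted p = 0.73). Cebpa, the factor required to form GMP, had 6.84 and 6.32 in KO GMP, against 8.26 and 8.23 in Het GMP, and fell by 1.67 (adjusted p = 0.000487). The KO and Het GMP arrays thus overlapped for Cebpe and stood apart for Cebpa.

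**Figure D4:**
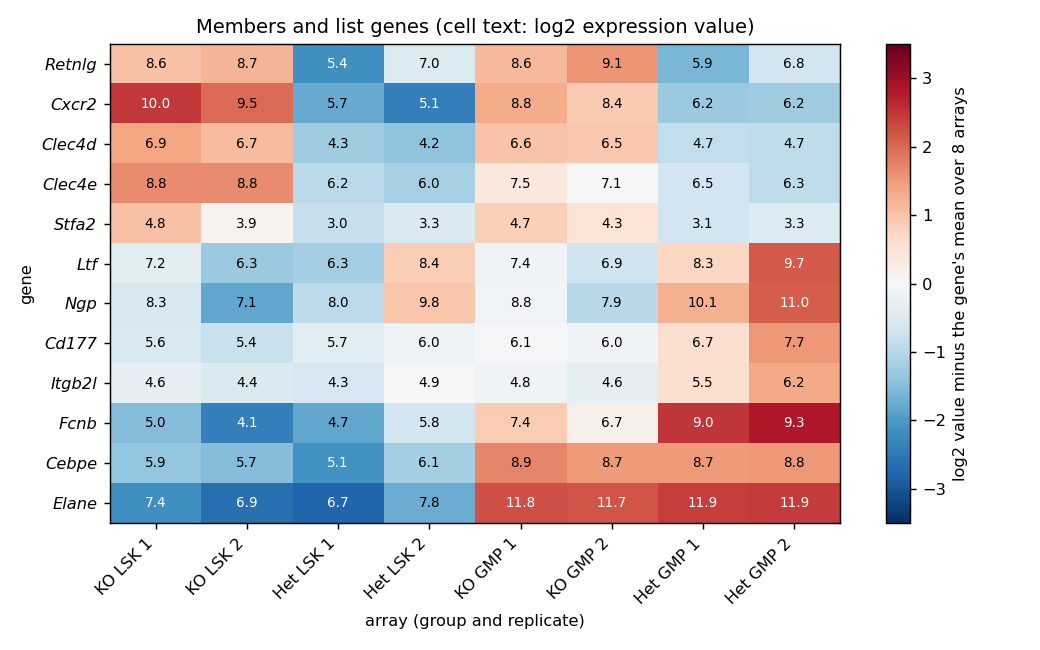
Each cell prints the log2 expression value of a gene (rows) on an array (columns), coloured by its distance from that gene's mean over the 8 arrays. Retnlg, Cxcr2, Clec4d, Clec4e and Stfa2 are higher on both KO arrays than on both Het arrays of each cell type, Ltf, Ngp, Cd177, Itgb2l and Fcnb are each highest on Het GMP replicate 2, and Cebpe and Elane separate GMP from LSK.

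The second question was how these genes differed between GMP and LSK in each genotype. All 10 had a difference above 0 in both genotypes, and few passed. In KO, Chil3 rose. In Het, Chil3, Camp and Cd177 rose. In KO, 1 of the 10 passed, against 6.05% of all rows (3.66% higher), and in Het 3 of 10, against 17.5% (7.9% higher). The median difference was 0.86 in KO and 1.49 in Het, beside -0.02 and 0.01 over all genes. At an unadjusted p under 0.05, 5 genes differed in KO, against 19.2% of all rows, and 8 in Het, against 29.2%. The labels give 2 mice per genotype. They do not say which array came from which mouse, or whether a LSK and a GMP array share a mouse. If same-numbered arrays of a genotype are taken as 1 mouse (a replicate block within genotype), 5 passed in KO and 8 in Het. Arrays did not overlap for 6 of the 10 in KO, all higher in GMP, against 47.5% of rows in either direction and 21.5% higher. In Het they did not overlap for 7, all higher in GMP, against 57.9% and 29.7%.

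**Figure D5:**
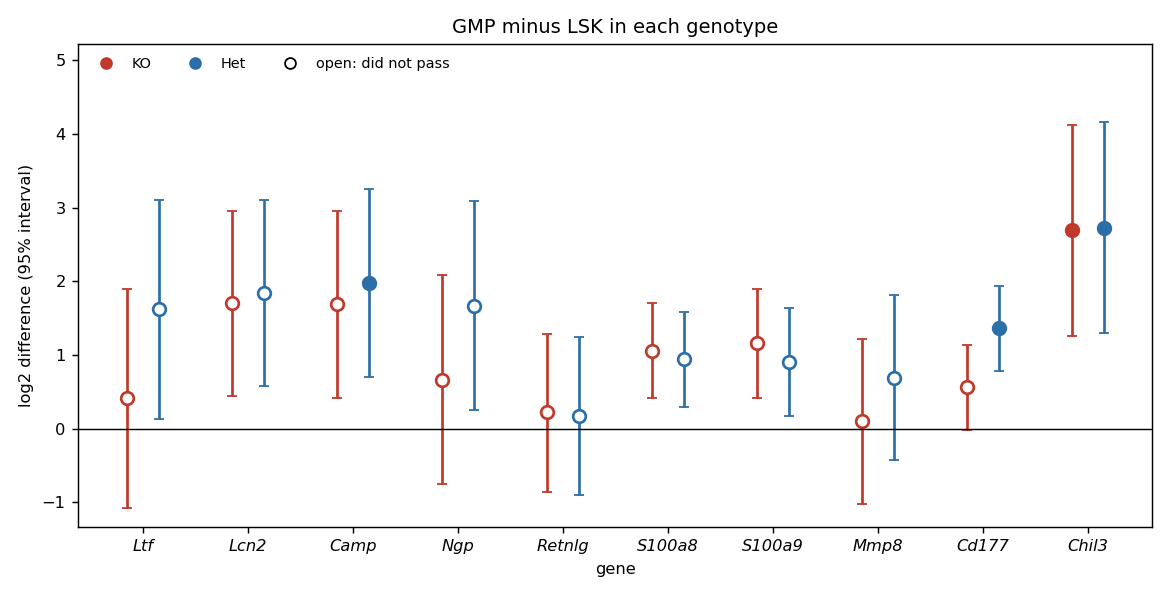
GMP minus LSK log2 difference with its 95% interval for each gene, in KO (red) and Het (blue); filled points passed at an adjusted p under 0.05 and open points did not. Every point lies above 0, Chil3 near 2.7 in both genotypes and Retnlg near 0.2 in both.

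Chil3 rose by 2.69 in KO (SE 0.63, 6.46-fold, adjusted p = 0.0407) and by 2.73 in Het (SE 0.63, 6.65-fold, adjusted p = 0.0166). The KO call was lost without any single KO array (adjusted p between 0.082 and 0.179), and the Het call without Het LSK replicate 1 (1.63, 0.0572) or Het GMP replicate 2 (2.09, 0.123). Its neighbour in the chitinase-like family, Chil4, rose too, by 1.26 in KO (adjusted p = 0.0231) and by 0.99 in Het (adjusted p = 0.029), at levels below 4 on every array. These calls were lost without any 1 of the 4 KO arrays in KO (adjusted p up to 0.121), and without Het LSK replicate 1 or Het GMP replicate 2 in Het (adjusted p up to 0.16). Cross-hybridisation between these similar genes was not tested.

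Cd177 rose by 1.36 in Het (SE 0.26, 2.57-fold, adjusted p = 0.00624) and passed under 17 of 17 alternatives. In KO its difference was 0.56 (SE 0.26, adjusted p = 0.278). Camp rose by 1.98 in Het (SE 0.56, 3.93-fold, adjusted p = 0.041), a call lost without Het LSK replicate 1 (1.11, 0.206) or either Het GMP array (2.34, 0.0863 without replicate 1 and 1.61, 0.217 without replicate 2), and had 1.69 in KO (adjusted p = 0.133).

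For the other genes the values were close to the threshold or below it. S100a8 had 1.06 in KO (SE 0.28, adjusted p = 0.0664) and 0.94 in Het (adjusted p = 0.0527), and S100a9 had 1.16 (SE 0.32, adjusted p = 0.0786) and 0.91 (adjusted p = 0.0945). Both GMP arrays lay above both LSK arrays for these 2 genes in each genotype. Lcn2 had 1.70 in KO (SE 0.56, adjusted p = 0.127) and 1.84 in Het (adjusted p = 0.0526), also without overlap. Ltf had 0.41 in KO and 1.62 in Het (adjusted p = 0.80 and 0.138), and Ngp 0.66 and 1.67 (adjusted p = 0.632 and 0.108). Retnlg had 0.22 in KO and 0.17 in Het (SE 0.47, adjusted p = 0.86 and 0.867), with LSK and GMP arrays that overlapped. Without Het LSK replicate 2, 9 of the 10 passed in Het, and without Het LSK replicate 1, 1 of 10 did.

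The other lists were counted the same way between GMP and LSK. Of the 27 other granule and mature neutrophil genes, 14 rose and 1 fell in KO, and 16 rose and 1 fell in Het, with medians of 0.67 and 1.58, beside medians of -0.02 and 0.01 over all genes and 3.66% and 7.9% of all rows called higher. Of the 12 primary granule genes, 9 rose in KO and 11 in Het, with medians of 2.41 and 2.6 and 0 falls. Hp, the haptoglobin gene, rose by 4.26 in KO and by 4.19 in Het (adjusted p = 1.47e-05 and 1.02e-05), and Cebpe by 3.04 and 3.15 (adjusted p = 0.000218 and 6.25e-05).

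Across the 8 arrays the 9 genes other than Retnlg correlated positively with each other, Mmp8 less closely with some. Mmp8 had the same r of 0.49 with Retnlg as with Ngp, and 0.41 with Cd177. Over the 36 pairs among the 9, Pearson's r had a median of 0.82 (0.41 to 0.99), and Retnlg correlated with them at -0.48 to 0.49 (median 0.02). These are descriptions over 8 arrays that share the groups. The genes whose values most resembled Retnlg were Wnt16 (r = 0.982), C1qtnf6 (0.979), Atp2c1 (0.978), Phlda1 (0.976) and Ppm1a (0.973). Those most like Ltf were Arhgap39 (0.986), Lrrc45 (0.97), Ifitm6 (0.966), Gab3 (0.963) and Ly6g (0.96), and Ifitm6 was also first for Ngp (0.983). Next for Ngp came Rnu6 (0.976) and Hmx3 (0.975). Cd177 was most like Slco4c1 (0.98), then 2310057M21Rik (0.972) and Itgb2l (0.972). Chil3 was most like Vps37a (0.986), then Gskip (0.983), Lactb2 (0.969), C5ar1 (0.965) and Chil4 (0.963). Nearest to Mmp8 were Vmn1r73 (0.947), Dnm1 (0.947), Olfr1271 (0.944), Olfr722 (0.943) and Kprp (0.942). With 8 arrays ranked over all genes, a high r alone does not show a shared programme. For S100a9, Sned1 came first (0.983) and was among the 5 nearest for S100a8 and Lcn2 (0.966 and 0.962).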

How the data were processed

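RNA from sorted LSK and GMP cells was amplified and hybridised to 8 arrays. The authors deposited log2 expression values made by RMA, per the submitters' processing notes. RMA corrects background, gives arrays 1 common distribution and summarises the probes of a transcript cluster. Its software, version and genome build are not stated in the labels. It makes no detection call, compresses differences of dim genes, and hides any shift common to all transcripts. Groups were assigned by labelled genotype and cell type. Of 35556 rows, 21789 had exactly 1 gene symbol, 1621 several and 12146 none.

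Tests used limma 3.58.1 in R 4.3.3 (lmFit with a mean for each group, all 8 arrays, then eBayes), two-sided, with Benjamini-Hochberg adjustment across 21789 rows in each of 5 contrasts and a threshold of 0.05. SE values come from limma, and SDs cover 2 arrays. The method was tested on simulated data. The 9 alternatives and the 8 fits with 1 array left out are in the closing section. The members, the 13 lists of other genes and the rule for named genes were chosen with earlier results of these data known. The rule took the 10 genes, up to 4 passing genes per list and contrast with the largest differences (2 where none passed), and the 5 genes most correlated with each member. The values of Ly6g, Prg2, Retn, Retnla and Retnlb, of Cebpb, Cebpd and Cebpe between genotypes and of Chil4 in Het were chosen after they were seen. The number of arrays limits the precision.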

Additional observations from a re-analysis of the deposited data

How the results depend on the processing

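The count of members that passed moved with the setting. With rows of several or no symbols tested too, 0 passed between KO and Het in LSK and 0 in GMP, 0 passed between GMP and LSK in KO and 1 in Het. Between GMP and LSK in KO, 0 passed after renewed quantile normalization, 0 with trend and robust variance and 3 with only the arrays of the groups compared. Between GMP and LSK in Het, 6 passed with array medians subtracted, 5 with dim rows removed and 1 with trend and robust variance. With 1 array left out, the counts ran from 0 to 2 for KO against Het in LSK and from 0 to 2 in GMP, from 0 to 4 for GMP against LSK in KO and from 1 to 9 in Het. With array medians subtracted, S100a8 in LSK turned to 0.04, and the interactions of Retnlg and S100a8 to -0.10 and -0.01; renewed quantile normalization gave -0.09 for the Retnlg interaction. The cause was not tested.

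Leaving out 1 array turned the sign of 22 differences, none of which passed with all arrays. KO against Het in LSK ran from -1.70 to 0.38 (Ltf), -1.45 to 0.58 (Lcn2), -1.70 to 0.04 (Camp), -0.53 to 0.44 (S100a8), -0.69 to 0.38 (S100a9), -0.45 to 1.43 (Mmp8) and -0.87 to 1.33 (Chil3). In GMP it ran from -0.02 to 0.18 (S100a8), -0.05 to 0.25 (S100a9), -0.44 to 0.24 (Mmp8) and -0.45 to 0.83 (Chil3). The interaction ran from -1.16 to 0.88 (Lcn2), -1.16 to 0.58 (Camp), -0.78 to 0.87 (Retnlg), -0.36 to 0.61 (S100a8), -0.29 to 0.79 (S100a9), -1.53 to 0.35 (Mmp8) and -1.14 to 1.06 (Chil3). GMP against LSK ran from -0.03 to 0.86 (Ltf) and -0.05 to 0.25 (Mmp8) in KO, and from -0.65 to 1.00 (Retnlg) and -0.25 to 1.63 (Mmp8) in Het.

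The labels do not tie arrays to mice, so the replicate numbers were not taken as pairing. Over all tested rows, the differences between replicates correlated at 0.179 between KO LSK and KO GMP and at 0.133 between Het LSK and Het GMP. Between groups of different genotype they correlated at -0.143 to -0.025. These values do not decide whether same-numbered arrays of a genotype share a mouse. With the replicate number as a block the counts stayed at 1 and 2 for KO against Het in LSK and GMP, 0 for the interaction, and 1 and 3 for GMP against LSK in KO and Het. Taken as a block within genotype, 5 passed in KO, 8 in Het and 0 in the interaction. Each gene had 1 row, so the mean of all its rows changed nothing. With 2 arrays a group, a lone array is assumed to vary like the other groups.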
